A study of Mus musculus with 78 samples.

Results

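Mouse brains at birth that carried a conditional over a null allele of Lis1 (Lis1 ko/cko) were compared with brains of the same age that carried 1 null allele and a wild-type one (Lis1 ko/+). The comparison takes 3 arrays of each genotype, chosen by their labels, from 78 Affymetrix arrays in 26 groups of 3. Both groups therefore share a null Lis1 allele and differ in the second one, and both have mix in their label. The labels give brain as the tissue, P0 (the day of birth) as the age and 1 RNA sample per array, but name neither the sex, nor the Cre line or promoter that would recombine the conditional allele, nor whether it had recombined. Wild-type brains of mixed background A at P0 (mixed A, 3 arrays) are given beside them. Lis1 ko/cko and ko/+ brains at embryonic day 14 (E14) and postnatal day 14 (P14), and Ndel1 ko/cko and ko/+ brains at P0, again with 3 arrays per group, serve to compare the step between the genotypes, that is, ko/cko minus ko/+. The question of the series is whether mutants of different members of the LIS1 complex change the brain's gene expression in the same way.

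LIS1, the product of Pafah1b1, binds the motor protein dynein and, together with NDEL1, helps it to carry the nucleus and the centrosome along microtubules. In human, loss of a copy of this gene causes lissencephaly, a smooth brain in which neurons fail to reach their layers. Migrating cortical neurons need the protein, and so do interneurons, which are born in the ganglionic eminences below the cortex and travel into it, while other neurons born there settle in the striatum.

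All values are log2 RMA values, in which the probes of a probe set were summarized and the arrays normalized by the authors. A difference of 1 is a 2-fold difference in signal. Differences are given ± the standard error of the limma fit over all 30 arrays at P0, with 3 arrays per group, whose number limits the precision. A gene was called at a Benjamini-Hochberg adjusted p under 0.05, and the p-values measure the spread between samples that the labels call biological replicates. Array medians lay between 5.18 and 5.21 in ko/cko and between 5.13 and 5.18 in ko/+. Xist was between 4.27 and 4.63 on all 6 arrays, and the Y-linked Eif2s3y was between 8.49 and 8.77. Replicate 3 of ko/+ stood furthest from the others of its group, with a root mean square distance of 0.276, against 0.172 to 0.246 for the ko/cko arrays and a median of 0.210 over the 30 arrays. The mixed A arrays were more scattered, with distances of 0.267, 0.269 and 0.386, the last being the highest of the 30.

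The transcript of the targeted gene was not lower in ko/cko than in ko/+. The Pafah1b1 probe set with the highest mean read 10.01, 10.09 and 10.12 in ko/cko, 10.18, 9.91 and 9.94 in ko/+, and 10.57, 10.44 and 10.51 in mixed A. The difference between ko/cko and ko/+ was 0.07 ± 0.11 and was not called. A second probe set read 9.72, 9.69 and 9.71 in ko/cko, 9.75, 9.74 and 9.70 in ko/+, and 10.30, 10.13 and 10.33 in mixed A. It differed by -0.03 ± 0.07 between the mutants, by -0.55 ± 0.07 between ko/cko and mixed A, and by -0.52 ± 0.07 between ko/+ and mixed A, so that both mutants lay below every mixed A array. Wild-type brains of mixed background B read 10.30, 10.17 and 10.31 on the second probe set, but 10.11, 9.81 and 9.93 on the one with the highest mean, where the Lis1 arrays were no lower. Another probe set was 0.27 ± 0.10 higher in ko/cko than in ko/+ and was not called. The labels do not place the probe sets relative to the deleted part of the gene, and one that lies outside checks nothing. The arrays therefore do not show a lower Pafah1b1 level in the group labelled ko/cko, and its genotype rests on the label. Ndel1 (0.06 ± 0.09), Ywhae (-0.03 ± 0.06) and Dcx (0.19 ± 0.17), which encode the partners NDEL1, 14-3-3 epsilon and doublecortin, were not called on the probe sets that represent them. Other tested probe sets of Dcx differed by 0.17 ± 0.30, 0.58 ± 0.20 and 0.68 ± 0.26, and those of Ywhae by -0.05 ± 0.08, 0.01 ± 0.05 and -0.52 ± 0.17. None of these was called. On the Dcx probe sets at 0.58 and 0.68 every ko/cko array was above every ko/+ array, as was the case for 8.04% of all genes tested.

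**Figure D1:**
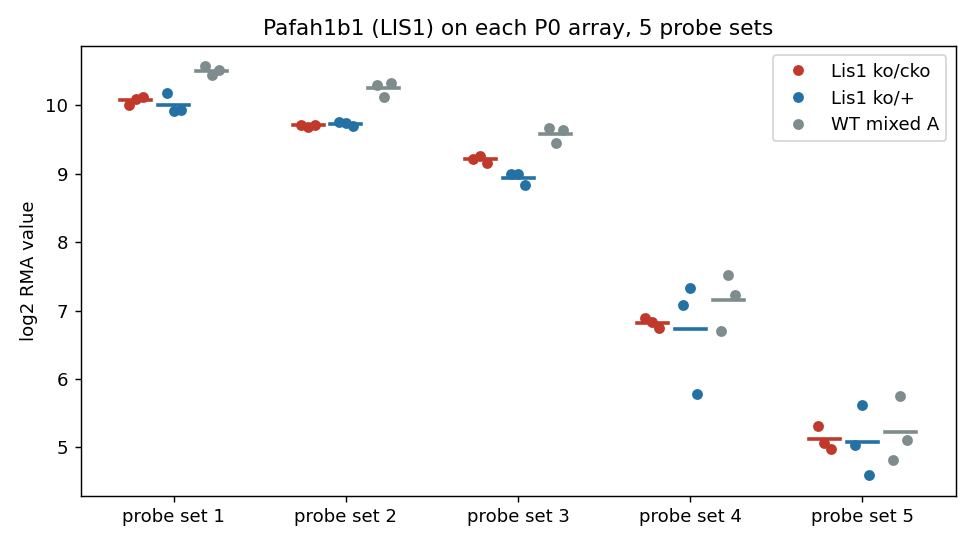
Log2 RMA values of the 5 Pafah1b1 probe sets, in order of their ko/+ mean, on each P0 array of Lis1 ko/cko, Lis1 ko/+ and WT mixed A. Points are arrays and bars are group means. On the 3 brightest probe sets the ko/cko arrays overlap or exceed the ko/+ arrays, and mixed A is above both mutants on them.

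Between the 2 Lis1 genotypes 67 of 11779 genes tested were called (0.569%). The count was 18 higher (0.153%) and 49 lower (0.416%) in ko/cko. Fold changes of the called genes were between 1.21 and 3.49 for those higher and between 1.28 and 4.70 for those lower. The median difference of all genes tested was -0.02, and 55.9% of the differences were below 0. At an unadjusted p under 0.05 there were 686 higher and 1080 lower genes. On 66 of the 67 called genes the arrays of the 2 groups did not overlap, while over all genes tested every ko/cko array was above every ko/+ array for 947 (8.04%) and below for 1515 (12.9%). With these 6 arrays alone 12 genes were called, 6 higher and 6 lower. The number of calls rested on a few arrays. It was 3 without ko/cko replicate 2, 32 without ko/cko replicate 1 and 4 without ko/+ replicate 3, and between 47 and 64 without any of the other arrays. Marchf1, Nxph2 and Wtap were called in all 6 of these fits. In each of the 6 fits all 67 genes kept their sign and had an unadjusted p under 0.05. The genes were chosen on these same arrays, so this is no separate support. For the 66 without overlap, leaving out 1 array could not turn the sign.

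**Figure D2:**
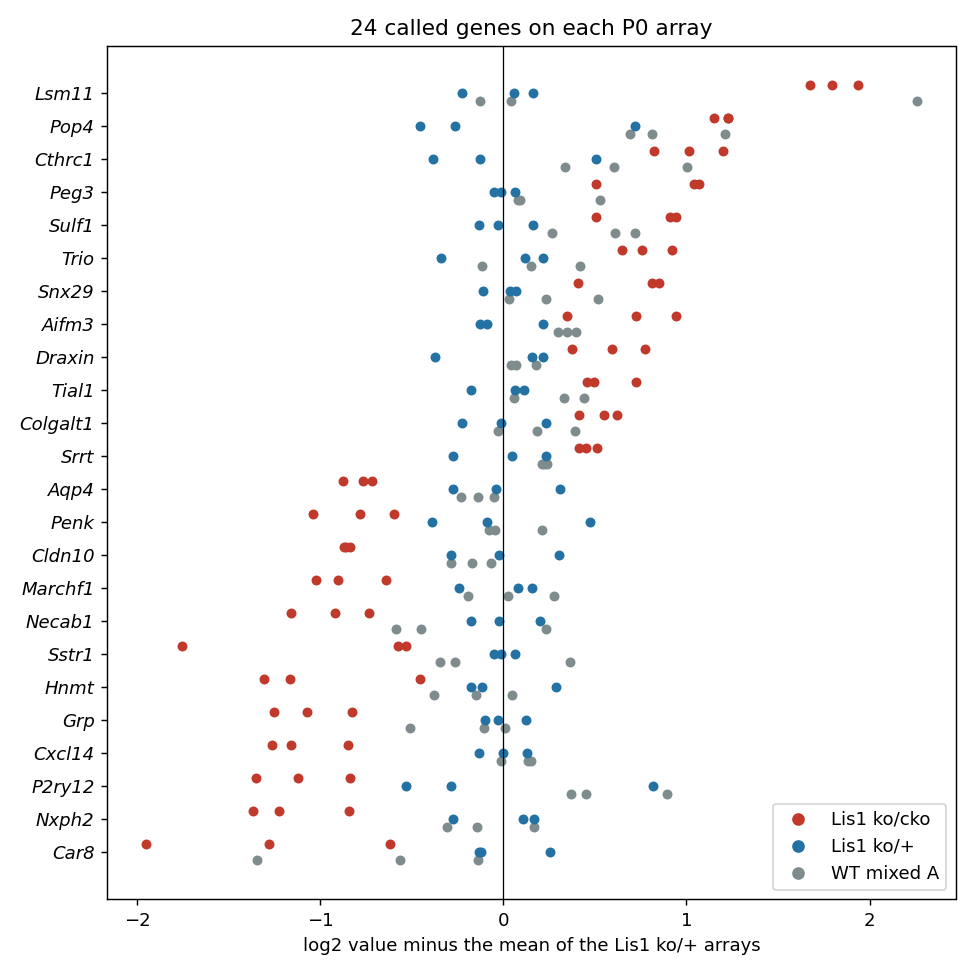
The 12 named genes that rose most and the 12 that fell most, on each P0 array of Lis1 ko/cko, Lis1 ko/+ and WT mixed A, as log2 value minus the mean of the ko/+ arrays. Points are arrays. The ko/cko arrays of each gene lie to 1 side of all its ko/+ arrays, and for most of the genes that fell the mixed A arrays lie among or near the ko/+ arrays.

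Of 21 listed genes of the striatum 18 were tested, 3 of them fell in ko/cko (0.416% of all genes), 0 rose, and 16 differences were below 0. Their median difference was -0.29, against -0.02 over all genes. On 11 of the 18 every ko/cko array was below every ko/+ array (12.9% of all genes). Penk, the precursor of enkephalin made by striatal projection neurons, read 7.28, 7.02 and 7.46 in ko/cko, 7.97, 7.67 and 8.54 in ko/+, and 8.01, 7.98 and 8.27 in mixed A. It fell by 0.80 ± 0.18 (limma adjusted p = 0.0372), with no overlap between the mutants. Rarb, a nuclear receptor for retinoic acid, read 7.41, 7.54 and 7.70 in ko/cko, against 8.26, 7.95 and 8.37 in ko/+. It fell by 0.64 ± 0.15 (limma adjusted p = 0.0416). Rxrg, a retinoid X receptor that pairs with such receptors, read 7.79, 7.33 and 7.56 in ko/cko and 8.25, 8.23 and 8.38 in ko/+. It fell by 0.73 ± 0.16 (limma adjusted p = 0.0340). Both receptor genes were lower on every ko/cko array than on every ko/+ array.

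The members that were not called mostly lay on the same side. Arpp21, a phosphoprotein of striatal neurons, differed by -0.46 ± 0.12, and Tac1, the precursor of substance P, by -0.46 ± 0.12. Ppp1r1b, which encodes the dopamine-regulated phosphoprotein DARPP, differed by -0.35 ± 0.11, the dopamine receptor Drd1 by -0.34 ± 0.21 and Drd2 by -0.27 ± 0.14. Isl1 (0.10 ± 0.22) and Adcy5 (0.15 ± 0.12) were the 2 members above 0. The mean level of the 18 genes was 7.78, 7.77 and 7.84 in ko/cko, 8.14, 8.03 and 8.16 in ko/+, and 8.19, 8.20 and 8.10 in mixed A. In whole tissue, fewer cells of a type, less RNA per cell and a different share of brain regions in the sample cannot be told apart. Of 18 tested genes of the thalamus 2 were below 0 and 0 were called (0.569% of all genes). Their median was 0.13, or 0.07 without ko/cko replicate 2. The striatal median was -0.32 without ko/cko replicate 2 and also without ko/+ replicate 3. Without either of these arrays no striatal gene was called, and likewise no member of any other list described below.

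GABAergic neurons, which release the inhibitory transmitter GABA, had 2 genes that fell (0.416% of all genes). Of 28 listed GABAergic genes 20 were tested and 0 rose, with a median difference of -0.23 and 17 differences below 0. Sst, the somatostatin precursor that marks a class of interneurons, read 10.21, 10.16 and 10.09 in ko/cko, 10.59, 10.48 and 10.61 in ko/+, and 10.45, 10.54 and 10.36 in mixed A. It fell by 0.41 ± 0.08 (limma adjusted p = 0.0138). Htr3a, a serotonin-gated channel subunit of interneurons from the caudal ganglionic eminence, read 5.40, 5.58 and 5.64 in ko/cko, against 6.32, 6.13 and 6.34 in ko/+. It fell by 0.72 ± 0.15 (limma adjusted p = 0.0320). For both genes every ko/cko array was below every ko/+ array. On 8 of the 20 every ko/cko array was below every ko/+ array and on 1 above, against 12.9% and 8.04% of all genes. Among these 8, but not called, were the transcription factors Dlx2 (-0.54 ± 0.13), Maf (-0.39 ± 0.10) and Sox6 (-0.32 ± 0.11). The enzymes that make GABA, Gad1 (-0.10 ± 0.12) and Gad2 (-0.05 ± 0.19), had overlapping arrays, and Calb2, which encodes calretinin, differed by 0.56 ± 0.21. The mean level of the 20 genes was 8.0, 8.01 and 8.08 in ko/cko, 8.17, 8.20 and 8.29 in ko/+, and 8.23, 8.18 and 8.22 in mixed A, without overlap between the mutants.

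**Figure D3:**
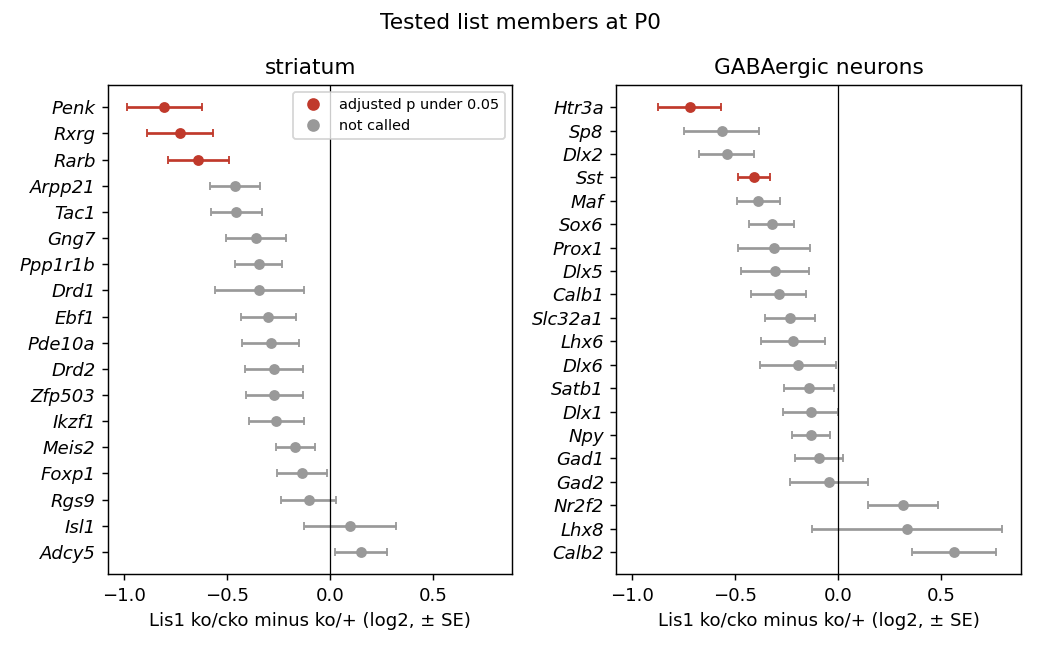
Difference between Lis1 ko/cko and Lis1 ko/+ at P0 (log2, ± SE of the limma fit) for each tested gene of the striatal list and of the list of GABAergic neurons. Red points are called genes. Of the 18 striatal genes 16 and of the 20 GABAergic genes 17 lie below 0, as do 55.9% of all genes tested.

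Of 27 listed neuropeptide genes 21 were tested, and Grp, Penk and Sst fell (0.416% of all genes) while 0 rose. The median of the list was -0.07, but -0.03 without ko/cko replicate 1 and -0.02 without ko/+ replicate 3. Grp, the precursor of gastrin-releasing peptide, read 7.61, 7.43 and 7.85 in ko/cko, 8.65, 8.58 and 8.80 in ko/+, and 8.17, 8.57 and 8.69 in mixed A. It fell by 1.05 ± 0.21 (limma adjusted p = 0.0284). Sstr1, a receptor of somatostatin, fell as well, by 0.95 ± 0.22 (limma adjusted p = 0.0368). Its values were 6.48, 5.25 and 6.43 in ko/cko and 7.07, 6.96 and 7.0 in ko/+, and without ko/cko replicate 2, the lowest array, the difference was -0.55.

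The Sst and Rarb promoters are shown because these genes fell and their promoters hold well-studied elements, the cAMP response element of Sst and the retinoic acid response element of Rarb. The windows reach from 250 bases before to 50 bases after the start of the gene, are RefSeq sequence of build GRCm38.p6, and lie on the minus strand at chr16:23890795-23891094 (Sst) and chr14:16575427-16575726 (Rarb). They are printed from 5′ to 3′ along the gene, and capitals mark the match.
Sst: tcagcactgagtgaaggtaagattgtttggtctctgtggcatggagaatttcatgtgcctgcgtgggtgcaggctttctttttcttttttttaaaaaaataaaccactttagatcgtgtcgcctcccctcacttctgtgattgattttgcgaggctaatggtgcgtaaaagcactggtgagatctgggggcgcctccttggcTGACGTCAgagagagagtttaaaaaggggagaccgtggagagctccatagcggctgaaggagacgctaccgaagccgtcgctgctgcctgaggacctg
Rarb: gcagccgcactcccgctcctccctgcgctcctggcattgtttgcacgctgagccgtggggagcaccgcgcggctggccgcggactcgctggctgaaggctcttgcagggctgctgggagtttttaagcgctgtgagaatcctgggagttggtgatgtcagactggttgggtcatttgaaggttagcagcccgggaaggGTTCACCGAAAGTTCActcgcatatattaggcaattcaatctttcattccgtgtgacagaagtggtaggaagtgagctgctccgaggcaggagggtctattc
Of the 32851 RefSeq promoters 1.79% hold TGACGTCA and 0.0761% hold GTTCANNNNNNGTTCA on either strand. Of the 49 genes that fell 34 have a promoter there. TGACGTCA was found in 2 of them, Sst and Rpl27a, and also in Peg3 and Pop4, 2 of 13 such promoters among the genes that rose. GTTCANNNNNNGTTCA was found in Rarb and in 0 of the 13. A match describes the letters of the window only.

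Nxph2, a neurexophilin, which is a secreted partner of neurexins, read 5.23, 5.09 and 5.62 in ko/cko, 6.57, 6.19 and 6.63 in ko/+, and 6.32, 6.63 and 6.15 in mixed A. It fell by 1.15 ± 0.17, with the smallest adjusted p of the comparison together with Marchf1 (limma adjusted p = 0.00189). Its relative Nxph1 fell by 0.46 ± 0.10 (limma adjusted p = 0.0298), with 8.54, 8.31 and 8.44 in ko/cko against 8.76, 8.90 and 9.02 in ko/+. The neurexophilin genes were thus lower on every ko/cko array. Cxcl14, a secreted chemokine, read 5.51, 5.41 and 5.83 in ko/cko, 6.54, 6.67 and 6.81 in ko/+, and 6.66, 6.81 and 6.83 in mixed A, and fell by 1.09 ± 0.18 (limma adjusted p = 0.00582). Synpr, the synaptic vesicle protein synaptoporin, fell by 0.75 ± 0.17. Neto1, an auxiliary subunit of kainate receptors, fell by 0.71 ± 0.17, and its other 2 tested probe sets by 0.60 and 0.77. Cdh9, a cadherin of synapses, fell by 0.74 ± 0.17, Necab1, a neuronal calcium-binding protein, by 0.94 ± 0.20, and Il1rapl2, a relative of interleukin receptors, by 0.73 ± 0.13. Car8, a carbonic anhydrase-related protein abundant in Purkinje cells, had values of 5.74, 6.41 and 7.08 in ko/cko, 7.57, 7.56 and 7.95 in ko/+, and 6.35, 7.13 and 7.55 in mixed A. It fell by 1.28 ± 0.27 (limma adjusted p = 0.0298), but the mixed A arrays overlapped those of ko/cko. It was the only called gene of 11 tested cerebellar genes (median 0.19), and Synpr was the only one of 11 genes of the olfactory bulb (median 0.03, but -0.02 without ko/cko replicate 1 and 0.09 without ko/+ replicate 3).

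Marchf1, a membrane-bound ubiquitin ligase, read 6.87, 7.0 and 7.26 in ko/cko, against 7.98, 7.66 and 8.06 in ko/+. It fell by 0.86 ± 0.12, and of its other tested probe sets 1 fell by 0.49 while 1, at 0.28 ± 0.23, was not called. Wtap, a subunit of the enzyme complex that methylates adenosine in mRNA, read 10.23, 10.11 and 10.14 in ko/cko and 10.73, 10.83 and 10.85 in ko/+, and fell by 0.65 ± 0.10 (limma adjusted p = 0.00323). Clp1, an RNA kinase of tRNA splicing, fell by 0.73 ± 0.16. Bhlhe40, a repressor of the circadian clock, fell by 0.49 ± 0.11 and was the only called gene of 14 tested clock genes. AI506816, a transcript without a gene name, had the largest fall, -2.23 ± 0.47, and was the 1 called gene whose arrays overlapped, since ko/+ replicate 1 read 3.76 and the ko/cko arrays read 3.80, 3.83 and 3.58.

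The astrocyte and the microglial list held 1 called gene each, lower in ko/cko, where 0.416% of all genes were called lower. Of 20 tested astrocyte genes Aqp4, the water channel of astrocyte endfeet, fell and 0 rose (median -0.12). Aqp4 read 7.79, 7.74 and 7.63 in ko/cko, 8.47, 8.23 and 8.81 in ko/+, and 8.45, 8.27 and 8.37 in mixed A, and fell by 0.79 ± 0.18 (limma adjusted p = 0.0368). Gfap, the astrocyte intermediate filament, read 5.80, 5.95 and 6.27 in ko/cko, 6.65, 6.74 and 7.20 in ko/+, and differed by -0.86 ± 0.21 without being called (limma adjusted p = 0.0523). On 6 of the 20 genes every ko/cko array was below every ko/+ array (12.9% of all genes). The glutamate transporter Slc1a3 (0.04 ± 0.08), glutamine synthetase, Glul (0.04 ± 0.11), and the lipoprotein Apoe (0.20 ± 0.13) had overlapping arrays. The mean level of the list was 8.81, 9.02 and 9.04 in ko/cko and 9.0, 8.98 and 9.26 in ko/+, and the list median was -0.02 without ko/+ replicate 3, the highest array. Among 15 tested microglial genes P2ry12, the receptor with which microglia sense ADP, fell by 1.10 ± 0.25 (limma adjusted p = 0.0372). It read 4.67, 4.45 and 4.96 in ko/cko, 5.26, 5.51 and 6.61 in ko/+, and 6.16, 6.24 and 6.69 in mixed A. Without ko/+ replicate 3, the highest of that group, the difference was -0.69. The complement genes C1qa (0.04 ± 0.18), C1qb (0.07 ± 0.17) and C1qc (0.02 ± 0.19), which microglia express, had overlapping arrays, and the list median was -0.17, or -0.06 without ko/+ replicate 3.

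Among the 18 genes that rose in ko/cko, Lsm11, a protein of the particle that processes the ends of histone mRNAs, had the largest change of a named gene. It read 8.77, 8.62 and 8.50 in ko/cko, against 6.99, 6.89 and 6.60 in ko/+, and rose by 1.80 ± 0.33 (limma adjusted p = 0.0116). Its mixed A arrays read 9.09, 6.70 and 6.87, so that 1 wild-type array was above the ko/cko arrays and 2 were at the ko/+ level, and its other tested probe set was 1.29 ± 0.32 higher in ko/cko. Pop4, a subunit of ribonuclease P, read 9.23, 9.31 and 9.31 in ko/cko, 8.80, 7.63 and 7.82 in ko/+, and 8.77, 8.89 and 9.29 in mixed A. It rose by 1.20 ± 0.20 (limma adjusted p = 0.00677), with the mixed A arrays nearer to ko/cko. Tial1, an RNA-binding protein of stress granules, rose by 0.56 ± 0.12, and its other 4 tested probe sets were between 0.63 and 0.95 higher. Srrt, which links the cap-binding complex to RNA processing, rose by 0.46 ± 0.10.

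Single regulators of axons and of the cytoskeleton were among the genes that rose. Of 41 tested axon guidance and adhesion genes Draxin, a secreted repellent of commissural axons, rose, 0 fell, and the median was 0.11. Without ko/+ replicate 3 the median was 0.04, with 18 of the 41 below 0 in place of 11. Draxin read 8.69, 9.09 and 8.91 in ko/cko, 8.53, 8.47 and 7.94 in ko/+, and 8.38, 8.49 and 8.35 in mixed A, and rose by 0.58 ± 0.14 (limma adjusted p = 0.0430). On 12 of the 41 every ko/cko array was above every ko/+ array (8.04% of all genes), with the repellent Slit1 at 0.42 ± 0.10 and the semaphorin receptor subunits Plxna4 at 0.37 ± 0.13 and Nrp2 at 0.34 ± 0.11, which were not called. Clasp1, which stabilizes growing microtubule ends, was the only called gene of 33 tubulins and microtubule-associated proteins and rose by 0.34 ± 0.07 (limma adjusted p = 0.0298). It read 11.08, 11.16 and 11.11 in ko/cko and 10.75, 10.91 and 10.68 in ko/+. Trio, a large signalling protein of growing axons, read 9.73, 9.90 and 9.62 in ko/cko, against 9.19, 9.10 and 8.63 in ko/+, and rose by 0.78 ± 0.14 (limma adjusted p = 0.00847). The probe sets of Trio did not move alike: of the other tested ones 1 was at -0.26 ± 0.12 and 1 at 0.27 ± 0.16. Ina, the neuronal intermediate filament alpha-internexin, rose by 0.35 ± 0.08 and the clathrin adaptor subunit Ap1m1 by 0.27 ± 0.06.

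Of the remaining named genes that rose, Cthrc1, a secreted protein with collagen repeats, rose by 1.01 ± 0.23. Sulf1, an enzyme that removes sulfate from heparan sulfate, rose by 0.79 ± 0.18. The collagen-modifying enzymes Colgalt1 and Plod3 rose by 0.53 ± 0.12 and 0.32 ± 0.07. Of these 4 genes, Cthrc1 read 6.31, 6.69 and 6.50 in ko/cko, 5.10, 5.36 and 5.99 in ko/+, and 6.48, 5.82 and 6.09 in mixed A, where the wild-type arrays reached into the range of ko/cko. Those of Sulf1 did so too, with 6.82, 6.48 and 6.93 in mixed A against 6.72, 7.12 and 7.15 in ko/cko.

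Of 21 tested imprinted genes, which are expressed from the copy of 1 parent, Peg3 rose, 0 fell, 17 differences were above 0 and the median was 0.21, or 0.37 without ko/cko replicate 1. Peg3, a zinc finger protein, read 10.86, 11.42 and 11.39 in ko/cko, 10.34, 10.30 and 10.42 in ko/+, and 10.88, 10.44 and 10.45 in mixed A. It rose by 0.87 ± 0.18 (limma adjusted p = 0.0298), and its other 2 tested probe sets were 0.60 and 0.55 higher. The growth factor Igf2 (0.49 ± 0.17) and the noncoding RNA Kcnq1ot1 (1.16 ± 0.40) were higher on every ko/cko array but were not called. The mean level of the list was 9.35, 9.48 and 9.57 in ko/cko, 9.19, 9.16 and 9.13 in ko/+, and 9.15, 9.27 and 9.13 in mixed A.

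The list of the LIS1 complex, dynein and dynactin held 0 calls among 34 genes tested, with a median of 0.04. Over all genes 0.569% were called. With a share that small, 0 calls say little about lists of this size. On 5 of the 34 every ko/cko array was above every ko/+ array and on 3 below, against 8.04% and 12.9% of all genes. Among these, the dynactin subunits Dctn5 (0.65 ± 0.19) and Dctn4 (-0.40 ± 0.10) differed in opposite directions. The dynein heavy chain Dync1h1 was at 0.29 ± 0.09. The mean level of the list was between 10.04 and 10.05 in ko/cko and between 9.97 and 10.01 in ko/+. Deep-layer (median -0.02 of 18 genes) and upper-layer cortical neurons (median -0.05 of 18), radial glia (0.03 of 24), intermediate progenitors (0.08 of 17), reelin signalling (0.02 of 23) and cell cycle genes (-0.09 of 44) had 0 called genes too. The median of the cell cycle genes was 0.03 without ko/cko replicate 1. Without ko/+ replicate 3 the medians were -0.16 for upper-layer neurons, 0.01 for intermediate progenitors, -0.01 for reelin signalling and 0.01 for the LIS1 complex, dynein and dynactin. On the chromosome of Pafah1b1 3 of 940 tested genes were called (0.319%), namely Gosr1, Lsm11 and Rhbdf1.

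The lists of choroid plexus, of Cajal-Retzius cells and of meninges and fibroblasts held 0 called genes, where 0.569% of all genes were called. All 13 tested choroid plexus genes were above 0, with a median of 0.59, and on 8 of them every ko/cko array was above every ko/+ array (8.04% of all genes). Kcne2, a potassium channel subunit of choroid epithelium, read 6.66, 7.06 and 7.37 in ko/cko, 5.92, 5.54 and 6.23 in ko/+, and 6.96, 5.98 and 6.46 in mixed A, a difference of 1.13 ± 0.36 (limma adjusted p = 0.147). The mean level of the list was 7.44, 7.69 and 7.81 in ko/cko, 7.18, 6.72 and 7.31 in ko/+, and 7.27, 7.17 and 7.44 in mixed A. All 8 tested genes of Cajal-Retzius cells, which lie below the pia and secrete reelin, were above 0 as well (median 0.41). Reln itself read 11.61, 11.73 and 11.84 in ko/cko, against 11.41, 11.50 and 11.23 in ko/+, a difference of 0.35 ± 0.09 (limma adjusted p = 0.0729), and the transcription factor Ebf3 differed by 0.87 ± 0.22 (limma adjusted p = 0.0697). Of 25 genes of meninges and fibroblasts 22 were above 0 (median 0.26, or 0.44 without ko/cko replicate 1), with mean levels of 7.73, 8.29 and 8.40 in ko/cko and 7.84, 7.77 and 8.0 in ko/+, which overlap through ko/cko replicate 1. The part of these tissues and cells in the other differences was not tested. The striatal and GABAergic lists and the choroid list kept the sign of their median without any of ko/cko replicate 1, ko/cko replicate 2 and ko/+ replicate 3. This is no separate support, since the mean levels of these lists did not overlap between the mutants. With 11 of 18 striatal and 8 of 13 choroid genes free of overlap, leaving out 1 array could not turn the striatal and choroid medians. RNA integrity, read as the 3' minus the 5' actin signal, was 0.195 to 0.214 in ko/cko and 0.164 to 0.192 in ko/+, without overlap. The same measure of Gapdh did overlap, with -0.117 to -0.0472 in ko/cko and -0.0826 to -0.0437 in ko/+. The part of RNA integrity in the differences was not tested either.

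**Figure D4:**
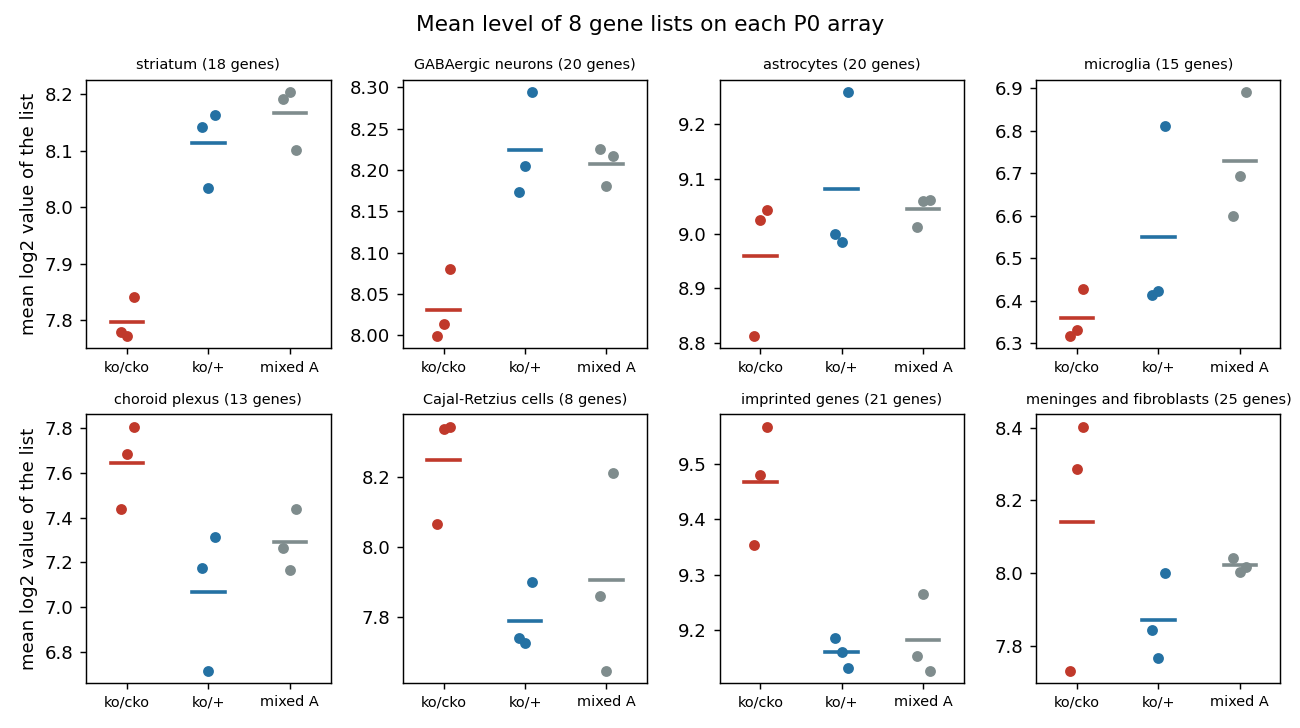
Mean log2 RMA value over the tested genes of 8 lists on each P0 array of Lis1 ko/cko, Lis1 ko/+ and WT mixed A, each panel with its own vertical scale that does not start at 0. Points are arrays and bars are group means. The ko/cko arrays lie below all ko/+ arrays for the striatal and GABAergic lists and above them for the choroid plexus, Cajal-Retzius and imprinted lists, and the arrays overlap for astrocytes, microglia, and meninges and fibroblasts.

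Against mixed A, 278 genes were called in ko/cko (2.36%), 50 higher (0.424%) and 228 lower (1.94%). By contrast, limma called 0 genes (0%) in ko/+ against mixed A, with 830 at an unadjusted p under 0.05. When every probe set was tested, 2 probe sets of Pafah1b1 were called lower in ko/+ than in mixed A, by 0.52 ± 0.07 (limma adjusted p = 0.000702) and by 0.65 ± 0.10 (limma adjusted p = 0.00559). In ko/cko they were called lower too, by 0.55 ± 0.07 (limma adjusted p = 0.000279) and 0.38 ± 0.10 (limma adjusted p = 0.0454). So was the probe set with the highest mean, by 0.43 ± 0.11 (limma adjusted p = 0.0375). On the probe set at 0.65, mixed B read 9.09, 8.89 and 9.15, below the 9.21, 9.25 and 9.16 of ko/cko. All 49 genes that fell in ko/cko against ko/+ were also lower in ko/cko than in mixed A, and 33 of them were called there. These comparisons share the ko/cko arrays, and the values stand side by side. For 45 of the 49 genes the ko/+ mean was nearer to the mixed A mean than the ko/cko mean was. Of the 18 genes that rose, all 18 were higher in ko/cko than in mixed A, 2 were called there, and ko/+ was the nearer mean for 12. For 0 of the 18 was ko/+ above mixed A, as it was for 47.05% of all genes. Their median was -0.23 for ko/+ minus mixed A and 0.31 for ko/cko minus mixed A. For the 49 genes that fell these medians were 0.09 and -0.57. The ko/+ arrays too had served to choose the genes.

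The step between the genotypes at birth was set against the same step at the other ages. At E14, 5 of 11743 genes were called between ko/cko and ko/+ (0.0426%), 3 higher (0.0255%) and 2 lower (0.017%), and 0 of the 67 genes were among them. Of the 44 genes lower at P0 and tested at E14, 29 were below 0 there, as were 44.4% of all genes. The difference between the step at P0 and the step at E14 was called for 36 of 12286 genes (0.293%), 8 higher (0.0651%) and 28 lower (0.228%) at P0 (12 and 20 after quantile normalization), and 9 of these were called at P0 too. Peg3 stepped up by 0.87 ± 0.18 at P0, against a difference of -0.47 at E14, and the difference between the steps was 1.35 (limma adjusted p = 0.00526). For Cxcl14 the steps differed by -1.61 (limma adjusted p = 0.00330). This gene was below the level required for testing in every E14 group and entered the test through its level at P0. Genes called at P0 were chosen on the P0 arrays that also enter the difference of the steps, so it is no separate support. The E14 arrays were uneven: the mean level of 34 genes of spinal cord, hindbrain and midbrain was 4.47, 6.49 and 4.59 in ko/cko and 4.46, 6.40 and 6.46 in ko/+ at E14, while it was between 4.15 and 4.22 in ko/cko and between 4.08 and 4.23 in ko/+ at P0. The number of calls in this test depended on single arrays. It was 596, 315 and 9 without E14 ko/cko replicates 1, 2 and 3, and 7 without E14 ko/+ replicate 2. It was 9 without P0 ko/cko replicate 2, and 219 and 9 without P0 ko/+ replicates 2 and 3. With the 12 Lis1 arrays alone limma called 0 genes, with 967 at an unadjusted p under 0.05.

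At P14, 986 of 12296 genes were called between ko/cko and ko/+ (8.02%), 634 higher (5.16%) and 352 lower (2.86%). Of the 49 genes that fell at P0, 29 were below 0 at P14, as were 48.3% of all genes, and 3 were called lower. The difference between the step at P0 and the step at P14 was called for 356 of 12717 genes (2.8%), 81 higher (0.637%) and 275 lower (2.16%) at P0, and the split was 150 and 202 after quantile normalization. Among them were 30 of the named genes called at P0, 9 with a positive and 21 with a negative difference. The P0 arrays that served to choose these genes enter this difference too, so its sign and size are no separate support. Sst fell by 0.41 ± 0.08 at P0 and was at 0.04 at P14 (difference of the steps -0.45, limma adjusted p = 0.0159). For Htr3a the steps were -0.72 and 0.25 (difference -0.97, limma adjusted p = 0.0203), and for Marchf1 they were -0.86 and 0.28 (difference -1.14, limma adjusted p = 0.000852). With the 12 Lis1 arrays of these ages alone 2 genes were called. The number of calls was 15 and 28 without P14 ko/cko replicates 2 and 1, 1335 without P14 ko/cko replicate 3 and 236 without P14 ko/+ replicate 3. It was 74 and 229 without P0 ko/cko replicates 2 and 3, and 98 without P0 ko/+ replicate 3. The striatal list had medians of -0.08 over 16 genes at E14, -0.29 over 18 genes at P0 and -0.15 over 18 genes at P14, with calls at P0 alone, and the difference over the list was not tested.

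The step was also compared with that of Ndel1 at P0, which shares no array with it. Of 11779 genes, 1076 were called between Ndel1 ko/cko and Ndel1 ko/+ (9.13%), 698 higher (5.93%) and 378 lower (3.21%). Genes lower in both were 12, which is 24.5% of the 49 in Lis1 and 3.17% of the 378 in Ndel1. They were Aqp4, Car8, Cdh9, Cldn10, Cxcl14, Hdhd2, Hnmt, Necab1, Nkiras1, Penk, Pla2g7 and Synpr. Cldn10 is a claudin of cell junctions, Hnmt inactivates histamine and Pla2g7 breaks down platelet-activating factor. Necab1, for example, fell by 0.94 ± 0.20 in the Lis1 step and by 1.16 in the Ndel1 step. Genes higher in both were Ap1m1, Clasp1, Draxin and Ina, 22.2% of the 18 in Lis1 and 0.573% of the 698 in Ndel1. Of the 49 genes, 32 were below 0 in the Ndel1 step, as were 40.7% of all genes tested. Mrps2, a mitochondrial ribosomal protein, and Ubash3b, a phosphatase of receptor signalling, fell in the Lis1 step and rose in the Ndel1 step.

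The difference between the Lis1 and the Ndel1 step was called for 226 genes (1.92%), 55 higher (0.467%) and 171 lower (1.45%) in Lis1, with a split of 66 and 104 after quantile normalization over all arrays. It was called for 15 of the named genes called in Lis1, which were chosen on the same Lis1 arrays, so this is no separate support. Lsm11 differed by 2.45 between the steps (limma adjusted p = 0.00708), Htr3a by -1.12 (limma adjusted p = 0.00795), Nxph2 by -1.12 (limma adjusted p = 0.0156), Mrps2 by -0.92 (limma adjusted p = 0.000122) and Wtap by -0.71 (limma adjusted p = 0.00980). Striatal genes had a median of -0.29 with 3 lower genes in the Lis1 step and of -0.21 with 5 lower genes in the Ndel1 step, and GABAergic genes had medians of -0.23 and 0.02 with 2 lower genes in each step. The difference over these lists was not tested. Ndel1 itself read 9.51, 9.63 and 9.53 in Ndel1 ko/cko, above the 9.40, 9.33 and 9.27 of Ndel1 ko/+, and 1 Ndel1 ko/cko array stood apart by an Xist value of 11.54. The number of calls was 93 without P0 Lis1 ko/cko replicate 2, and 85 and 114 without P0 Lis1 ko/+ replicates 1 and 3. Leaving out 1 Ndel1 ko/cko array gave 72, 114 and 110 calls for replicates 1, 2 and 3, and leaving out 1 Ndel1 ko/+ array gave 94, 111 and 105.

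**Figure D5:**
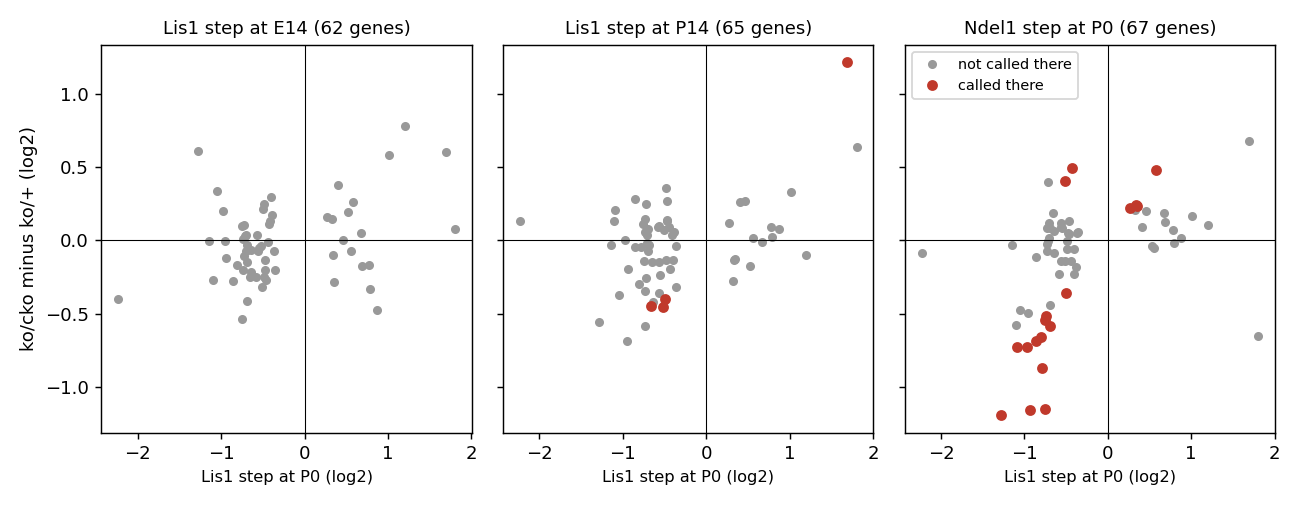
The difference between ko/cko and ko/+ (log2) for Lis1 at E14, for Lis1 at P14 and for Ndel1 at P0 (vertical axes) against the Lis1 difference at P0 (horizontal axis), for the genes called at P0 that were tested there. Points are genes, red where called in the comparison of the vertical axis. Of the genes that fell in the Lis1 step at P0, 12 were called lower in the Ndel1 step, 3 in the Lis1 step at P14 and 0 at E14.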

How the data were processed

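The authors deposited log2 values of 45101 probe sets on 78 Affymetrix arrays, made by RMA per the submitters' processing notes, with no version stated. Per the labels, total brain RNA was extracted with Trizol and labelled with biotin by in vitro transcription. Every column was matched to a sample. Those with 1 gene symbol (34945) were used, 932 name several genes, 9160 have no gene listed and 64 are array controls. For each of 18193 genes the brightest probe set on average stood for the gene. Genes were tested if the highest group mean at the ages fitted reached 5.253, the median of all values.

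Linear models with 1 mean per group were fitted in R 4.3.3 with limma 3.58.1 (data.table, version 1.17.8), with variances moderated by empirical Bayes with a trend. The fit over 30 P0 arrays gave the main comparison, and fits over 2 ages gave the differences between steps. The procedure was tested on simulated data. Named genes are the targeted genes, the 12 called genes that rose most and the 12 that fell most without overlap of the arrays, up to 4 called members per list, and genes called in a difference of steps. Predicted genes are passed over, and further genes are given as values chosen after they were seen. The members, the 53 gene lists and the alternatives were chosen with earlier results of these data known. Replicate numbers do not pair the arrays: the deviations of same-numbered ko/cko and ko/+ arrays correlated at -0.01, -0.16 and 0.21. Alternatives were the filter, the choice of probe sets, the arrays fitted, quantile normalization, the variance prior, a replicate block and leaving out each array.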

Additional observations from a re-analysis of the deposited data

Results flagged for a closer look

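These genes were called between Lis1 ko/cko and ko/+ at P0, and their step between the genotypes differed from the same step at another age or in another mutant by the limma test of the difference itself. Values are differences of log2 steps, with the adjusted p-values of limma. They rest on 3 arrays per group, and the numbers of calls given above for these tests change with single arrays. The P0 arrays that served to choose the genes enter each difference, so its sign and size are no separate support. With the arrays of the groups compared alone, limma called 0 genes in the test against E14 (967 at an unadjusted p under 0.05), 2 against P14 and 759 against the Ndel1 step. The genes called at P0 have 46 other tested probe sets, and in the Lis1 step at P0 41 had the same sign. Those of opposite sign belonged to Birc6, Marchf1, Trio, Yae1d1 and Zc2hc1a, for example at 0.01 ± 0.09 for Zc2hc1a and 0.27 ± 0.16 for Yae1d1. Another probe set of Birc6 was at -0.01 ± 0.10.

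The Lis1 step at P0 was above that at E14 for Peg3 (1.35) and Trio (0.94). It was below that at E14 for Mpc1 (-0.56), Cinp (-0.70), Mrps2 (-0.54), Bhlhe40 (-0.73), Hdhd2 (-0.71), Cldn10 (-1.10) and Cxcl14 (-1.61). The adjusted p-values of these 9 genes were between 0.00330 and 0.0425. Cldn10 and Cxcl14 were below the filter in every E14 group and entered the test through their level at P0.

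The Lis1 step at P0 was above that at P14 for Pop4 (1.30), Trio (0.69), Snx29 (0.95), Aifm3 (0.69), Draxin (0.87), Colgalt1 (0.70), Ina (0.48), Clasp1 (0.47) and Plod3 (0.60). It was below that at P14 for Abhd2 (-0.32), Mpc1 (-0.44), Sst (-0.45), Abhd13 (-0.53), Nxph1 (-0.60), Nipsnap2 (-0.74), Bhlhe40 (-0.85), Ubash3b (-0.58), Slc30a4 (-0.66), Birc6 (-0.68), Nkiras1 (-0.77), Neto1 (-0.74), Htr3a (-0.97), Il1rapl2 (-0.79), Clp1 (-0.88), Pla2g7 (-0.87), Cldn10 (-0.81), Marchf1 (-1.14), Hnmt (-0.97), Cxcl14 (-1.29) and Nxph2 (-1.11). The adjusted p-values of these 30 genes were between 0.000852 and 0.0463. Draxin and Snx29 were below the filter in every P14 group and entered the test through their level at P0.

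At P0 the Lis1 step was above the Ndel1 step for Lsm11 (2.45) and Pop4 (1.10). It was below the Ndel1 step for Abhd2 (-0.41), Mrps2 (-0.92), Nxph1 (-0.51), Tshz1 (-0.60), Ubash3b (-0.91), Yae1d1 (-0.64), Wtap (-0.71), Ppp1r3c (-0.84), Zc2hc1a (-0.71), Htr3a (-1.12), Il1rapl2 (-0.81), Marchf1 (-0.74) and Nxph2 (-1.12). The adjusted p-values of these 15 genes were between 0.000122 and 0.0499.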

How the results depend on the processing

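The 67 genes called between Lis1 ko/cko and ko/+ at P0 became 12 (6 higher and 6 lower) with the 6 arrays alone, 118 probe sets when every probe set was tested and 143 with all 78 arrays in 1 fit. They ranged from 3 to 64 without single arrays and from 51 to 77 under the other alternatives. The 36 calls in the difference of the Lis1 steps at P0 and E14 became 21 without a filter, 89 with the stricter filter at 7.627, 60 with the mean of all probe sets, 0 with the arrays of the groups compared alone and 191 with all arrays, and ranged from 7 to 596 without single arrays. The 356 calls against P14 became 220 without a filter, 704 with every probe set and 2 with the arrays of the groups compared, and ranged from 15 to 1335. The 226 calls against the Ndel1 step became 149, 374 and 759 under the same settings, and ranged from 72 to 245. With the replicate block the 4 counts were 60, 34, 312 and 189. The causes were not tested. Differences near 0 of targeted genes that were not called changed sign under some settings: Dcx lay between -0.01 and 0.41, Ndel1 between -0.16 and 0.13 and Ywhae between -0.15 and 0.00. The design has 3 arrays per group, and signal near the array background was not separated from expression beyond the filter.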

Other observations

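None of the listed members of several gene lists on general cell functions was called by limma between Lis1 ko/cko and ko/+ at birth. Over all genes 0.569% were called and 55.9% were below 0. Of 33 tested genes in the list of cytosolic ribosomal proteins 29 were below 0 (median -0.06). On 9 of them every ko/cko array was below every ko/+ array, against 12.9% of all genes. Rpl27a, a ribosomal protein gene outside that list, fell by 0.56 ± 0.13 (limma adjusted p = 0.0382). Of 41 genes of oxidative phosphorylation 33 were below 0 (median -0.07), but 23 were without ko/+ replicate 3 (median -0.02). Sterol biosynthesis genes had a median of 0.09 over 20 genes. Oligodendrocyte precursors had a median of -0.16 over 11 genes, or -0.06 without ko/cko replicate 1, and myelin and oligodendrocytes one of -0.20 over 9 genes, or -0.10 without ko/cko replicate 1 and -0.09 without ko/+ replicate 3.

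In the Ndel1 step at P0, 11 of 17 genes of intermediate progenitors and newborn neurons and 10 of 44 cell cycle genes were called higher and none lower, where 5.93% of all genes were called higher. The Lis1 step, in which 0.153% of all genes were called higher, held no call in either list. The difference over these lists was not tested.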
